A study of Mus musculus with 8 samples.

Results

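Adjacent H3K27ac UP and DOWN regions are places where thapsigargin was followed by more acetylation at one H3K27ac region and less at the very next one. To find them, the H3K27ac UP, DOWN and unchanged regions were pooled and sorted by position, and an UP and a DOWN region were paired when no listed region lay between them and the gap was 12.5 kb or less. This gave 227 pairs made of 440 regions, 222 UP and 218 DOWN, out of 32196 regions in all. They are 4.95% of the 8884 changed regions. In 14 cases (5 UP and 9 DOWN) a region had an opposite neighbour on each side and belongs to 2 pairs.

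The regions come from primary hepatocytes (MPH) of WT adult male C57Bl6 mice. The cells were kept in a serum-free medium and exposed for 4 h to 1 µM thapsigargin or to the vehicle, 0.04% DMSO, with 3 H3K27ac libraries from independent preparations and 1 input library for each treatment. The 3 lists give mm10 positions only. They hold no signal for a library, so the sequencing depth is unknown, the values carry no error between preparations and no test over libraries could be run. The 95% Wilson intervals given cover counting error alone, with regions as units. The class of each region, which fixed the members, was the authors' call of thapsigargin against DMSO: 17.1% of all regions were called UP, 10.5% DOWN and 27.6% either. Regions that reached significance with bins moving in both directions were discarded by the authors, so an unlisted region may lie in some gaps. MPH are a preparation and not a single cell type by construction. The TSSs of all 7 hepatocyte markers (Alb, Ttr, Apoa1, Apob, Serpina1a, Cps1 and Hnf4a) lay in H3K27ac regions, against 1 of 4 Kupffer cell markers (Cd68), 1 of 4 for sinusoidal endothelium (Stab2), 1 of 4 for cholangiocytes (Sox9) and none of 4 stellate cell or 2 lymphocyte markers. In such bulk chromatin, a loss of acetylation in each cell and a loss of the cells that carry it cannot be told apart.

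H3K27ac is deposited by the p300 and CBP acetyltransferases on nucleosomes next to active promoters and enhancers, and is lost when these elements fall silent. Thapsigargin blocks the SERCA pumps that load calcium into the endoplasmic reticulum, which causes endoplasmic reticulum stress (ERS) and starts the unfolded protein response through the sensors IRE1, PERK and ATF6. In the liver, the genes of mature hepatocyte function lie in clusters of enhancers bound by factors such as HNF4A, FOXA and CEBP. Stress signalling acts through factors such as AP-1, ATF4 and CHOP.

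Sequences from the centre of both partners at 4 named loci show what the UP and the DOWN window of a pair can look like. They were picked after their motif content had been seen and are examples only. Each is 300 bases of the plus strand of mm10, read from the RefSeq copy of GRCm38.p6, with motif matches on either strand in capitals. At Egfr, which encodes the EGF receptor, the UP centre (chr11:16795252-16795551) holds an NRF2/MAF and an AP-1 match and the DOWN centre (chr11:16761743-16762042) a CEBP match. At Gpam, whose product starts triglyceride synthesis, the UP centre (chr19:55070291-55070590) holds an NRF2/MAF match and the DOWN centre (chr19:55066198-55066497) an HNF4 match. Between Ell, an elongation factor gene, and Fkbp8, the UP centre (chr8:70542306-70542605) holds an NRF2/MAF match, and the DOWN centre (chr8:70529734-70530033) holds AP-1, HNF4 and FOXA matches, the last pair overlapping. Beside Hp, the gene of the acute phase protein haptoglobin, the UP centre (chr8:109565614-109565913) holds a FOXA and a CRE match, and the DOWN centre (chr8:109575379-109575678), in a coding exon, holds none.
Egfr, UP partner: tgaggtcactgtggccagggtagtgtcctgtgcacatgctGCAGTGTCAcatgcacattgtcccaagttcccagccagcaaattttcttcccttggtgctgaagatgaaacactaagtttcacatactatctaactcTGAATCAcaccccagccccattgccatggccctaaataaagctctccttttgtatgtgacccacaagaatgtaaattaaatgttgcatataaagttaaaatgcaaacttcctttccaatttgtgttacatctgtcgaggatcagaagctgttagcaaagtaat
Egfr, DOWN partner: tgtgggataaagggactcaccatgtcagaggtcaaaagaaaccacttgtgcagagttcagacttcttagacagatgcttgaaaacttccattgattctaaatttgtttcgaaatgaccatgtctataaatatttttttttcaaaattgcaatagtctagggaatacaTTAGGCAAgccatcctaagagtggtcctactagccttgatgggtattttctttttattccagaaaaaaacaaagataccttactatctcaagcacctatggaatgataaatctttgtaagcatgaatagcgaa
Gpam, UP partner: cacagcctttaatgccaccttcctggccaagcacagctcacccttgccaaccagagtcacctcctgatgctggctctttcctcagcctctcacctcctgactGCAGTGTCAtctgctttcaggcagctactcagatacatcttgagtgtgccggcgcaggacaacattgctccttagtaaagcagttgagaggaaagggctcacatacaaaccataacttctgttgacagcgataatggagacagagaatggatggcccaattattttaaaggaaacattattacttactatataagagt
Gpam, DOWN partner: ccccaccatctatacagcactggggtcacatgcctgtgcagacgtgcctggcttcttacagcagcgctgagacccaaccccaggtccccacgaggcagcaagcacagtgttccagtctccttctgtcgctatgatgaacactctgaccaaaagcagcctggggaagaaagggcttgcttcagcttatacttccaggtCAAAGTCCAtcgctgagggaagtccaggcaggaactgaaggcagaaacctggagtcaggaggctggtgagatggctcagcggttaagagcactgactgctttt
Ell, UP partner: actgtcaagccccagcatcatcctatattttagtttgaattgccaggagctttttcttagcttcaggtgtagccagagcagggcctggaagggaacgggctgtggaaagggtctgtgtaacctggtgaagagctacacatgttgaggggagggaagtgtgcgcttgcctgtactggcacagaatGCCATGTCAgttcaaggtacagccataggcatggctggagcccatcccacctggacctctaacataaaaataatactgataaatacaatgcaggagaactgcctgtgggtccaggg
Fkbp8, DOWN partner: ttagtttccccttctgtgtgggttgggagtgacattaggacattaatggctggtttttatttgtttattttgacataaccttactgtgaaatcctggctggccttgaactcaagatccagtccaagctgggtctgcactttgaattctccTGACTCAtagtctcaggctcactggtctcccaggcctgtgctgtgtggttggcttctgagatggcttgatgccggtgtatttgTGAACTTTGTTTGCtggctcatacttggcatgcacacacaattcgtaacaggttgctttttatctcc
Txnl4b, UP partner: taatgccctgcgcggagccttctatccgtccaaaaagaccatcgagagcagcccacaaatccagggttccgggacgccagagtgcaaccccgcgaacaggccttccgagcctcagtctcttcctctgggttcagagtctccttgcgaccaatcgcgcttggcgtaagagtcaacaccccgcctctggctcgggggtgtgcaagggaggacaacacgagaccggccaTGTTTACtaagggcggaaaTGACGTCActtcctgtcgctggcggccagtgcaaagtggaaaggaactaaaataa
Hp, DOWN partner: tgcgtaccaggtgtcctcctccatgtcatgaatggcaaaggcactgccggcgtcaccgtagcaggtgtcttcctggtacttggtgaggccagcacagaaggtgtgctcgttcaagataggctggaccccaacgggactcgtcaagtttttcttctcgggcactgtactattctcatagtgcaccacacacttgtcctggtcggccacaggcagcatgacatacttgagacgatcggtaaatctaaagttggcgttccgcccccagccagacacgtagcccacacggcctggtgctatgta

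One promoter is shown as well, since it lies in the UP partner of the Gsta3 pair. Gsta3 encodes a glutathione S-transferase of the antioxidant and xenobiotic response. The RefSeq promoter (GRCm38.p6, chr1:21240335-21240634, plus strand, 300 bases around the start) holds a CEBP, an NRF2/MAF and a D-box match, in capitals and in that order. Of 32851 such promoters, 10.8% hold the CEBP motif, 12.4% the NRF2/MAF motif and 6.0% the D-box, so each match alone is common.
Gsta3, promoter: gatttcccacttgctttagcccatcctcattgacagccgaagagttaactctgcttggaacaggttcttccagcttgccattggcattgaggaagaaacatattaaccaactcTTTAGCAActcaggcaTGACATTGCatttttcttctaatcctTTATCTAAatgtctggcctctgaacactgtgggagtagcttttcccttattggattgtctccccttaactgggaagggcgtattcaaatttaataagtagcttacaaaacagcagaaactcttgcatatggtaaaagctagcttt

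UP and DOWN neighbours made up 1.55% of the 14673 neighbour pairs within the limit and 16.4% of the 1381 pairs in which both regions changed, beside 704 UP-UP and 450 DOWN-DOWN pairs. They sat farther apart than these, which is a description since the gap is part of the rule. The gap between an UP and a DOWN partner ran from 895 to 12463 bp with a median of 5742 bp (quartiles 2988 and 8774 bp), against medians of 4268 bp for UP-UP, 3596 bp for DOWN-DOWN and 4289 bp for neighbours that include an unchanged region. Only 14.1% of the UP-DOWN gaps were 2 kb or less, against 22.0% of the UP-UP and 26% of the DOWN-DOWN gaps. Put the other way, UP-DOWN pairs were 10.5% (7.56% to 14.5%) of the 304 changed neighbours with a gap of up to 2000 bp, 14.97% (12.0% to 18.5%) of 461 from there to 5000 bp, 20.5% (17.5% to 23.8%) of 616 from there to the limit and 26.8% (23.7% to 30.2%) of 705 between 12.5 kb and 50000 bp. No 2 listed regions of any class were closer than 841 bp, so the tightest UP-DOWN pairs are near the smallest gap that the lists contain.

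**Figure D1:**
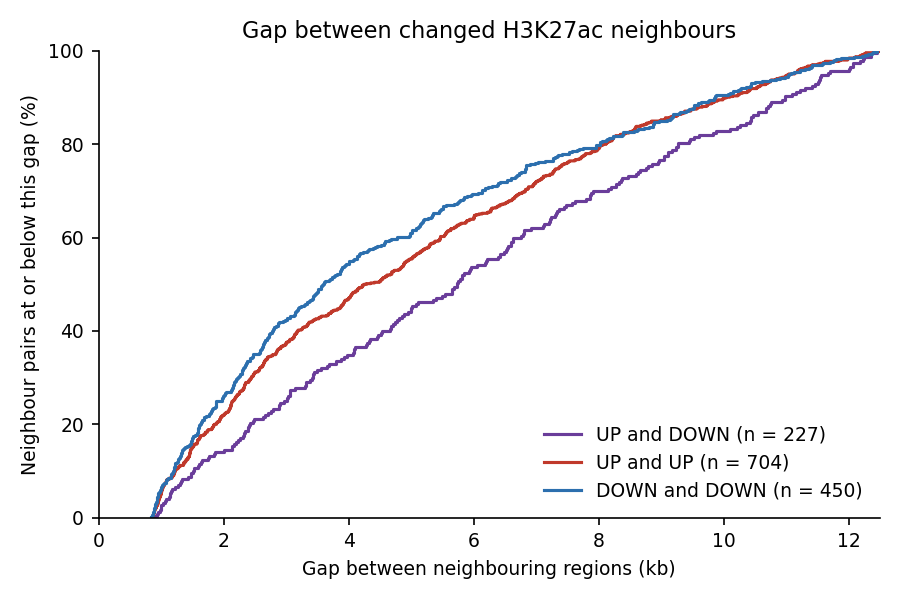
Share of neighbouring changed regions (y axis, %) whose gap is at or below the value on the x axis (kb), for UP-DOWN (n = 227), UP-UP (n = 704) and DOWN-DOWN (n = 450) neighbours within 12.5 kb. The UP-DOWN curve lies below the others over most of the range, with a median of 5742 bp against 4268 and 3596 bp.

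The 5 closest pairs were at Uhrf1bp1l, Lipc, Plk2, Prr16 and near Rbpms. At Uhrf1bp1l, the UP region at the TSS (chr10:89744645-89747443) was 895 bp from the DOWN region in the gene body (chr10:89748339-89752598). In Lipc, the gene of hepatic lipase, an UP region of 4545 bp and a DOWN region of 3873 bp were 935 bp apart, 85160 and 90640 bp from the nearest protein-coding TSS, that of Lipc itself. Plk2, a polo-like kinase gene, had an UP region of 5120 bp at its TSS and a DOWN region of 575 bp that ended 949 bp before it. The pair in Prr16 had a gap of 979 bp, and the one between genes, 36322 bp from the Rbpms TSS at its nearer partner, a gap of 996 bp. At the far end, the last pair inside the limit had a gap of 12463 bp, and the first pair outside it, whose DOWN region covers a Cradd TSS, a gap of 12559 bp.

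DOWN partners were wider than UP partners in 133 of 227 pairs (58.6%, 52.1% to 64.8%) and narrower in 94. The median width was 2763 bp for DOWN partners and 2025 bp for UP partners, above the medians of 2229 bp for all DOWN and 1622 bp for all UP regions, while the median of all regions was 1311 bp. Regions of DOWN-DOWN neighbours had a median of 2717 bp, close to that of DOWN partners. For regions of UP-UP neighbours the median was 1751 bp. The median log2 ratio of DOWN to UP width was 0.38, with quartiles of -0.83 and 1.43. In 36 pairs the DOWN partner was over 4 times as wide as the UP partner, in 11 pairs the UP partner was, and in 99 pairs the widths were within 2-fold. From end to end, the median pair spanned 12482 bp. The UP partner lay at the lower coordinate in 111 pairs and the DOWN partner in 116.

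The widest pair was at Egfr, where the UP partner (chr11:16775856-16814949, 39094 bp, in an intron) was the widest UP region of all and lay 2961 bp from a DOWN partner of 22002 bp that covers the TSS (chr11:16750893-16772894). Among the other wide pairs, Cyb5a, the gene of cytochrome b5, had 28188 bp of UP region at its TSS and 8320 bp of DOWN region 2235 bp on. Rnf144b, a ubiquitin ligase gene, had the reverse arrangement, with 11576 bp DOWN at the TSS and 18150 bp UP in the body. Errfi1, which encodes a feedback inhibitor of EGFR, was far more uneven, since its DOWN partner of 23661 bp (chr4:150850052-150873712) was 50.3 times as wide as the UP partner of 470 bp. The wider partner was thus UP at Egfr, Cyb5a and Rnf144b and DOWN at Errfi1.

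**Figure D2:**
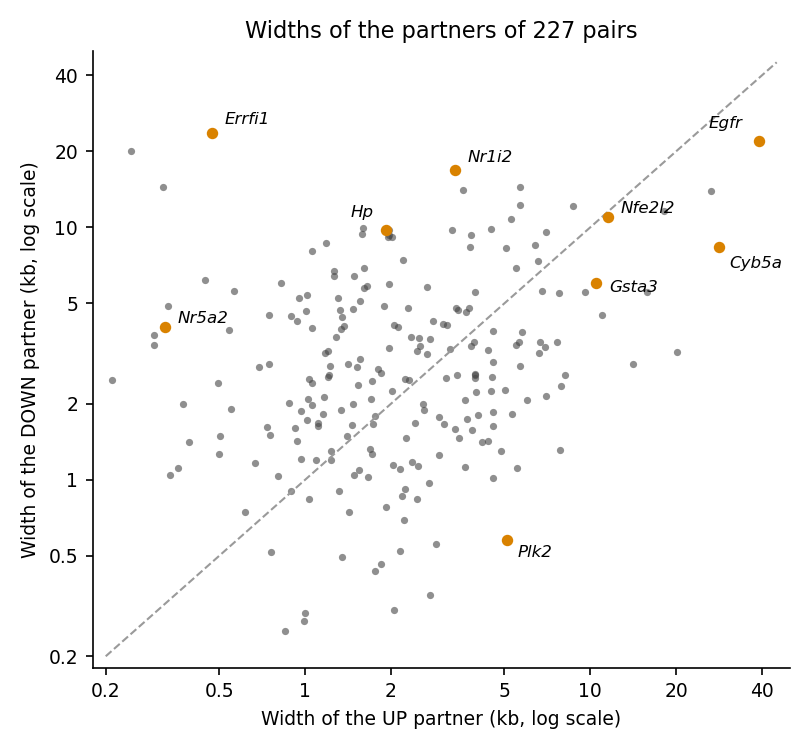
Width of the UP partner (x axis, kb, log scale) against that of the DOWN partner (y axis, kb, log scale) for the 227 pairs, 1 point per pair, with equal widths on the dashed line and 9 pairs named in orange. More points lie above the line (133) than below it (94), and Egfr sits at the upper right with 39094 and 22002 bp.

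UP partners held a TSS more often than DOWN partners, with intervals that overlap. A TSS of any transcript fell in 86 of 222 UP partners (38.7%, 32.6% to 45.3%) and in 61 of 218 DOWN partners (28.0%, 22.4% to 34.3%). All UP regions (37.2%) and all DOWN regions (27.5%) had nearly the same shares, so the pairs show the difference found over the lists as a whole. DOWN partners lay in gene bodies more often than DOWN regions did in all, a difference that was not tested. Of these partners, 113 (51.8%, 45.2% to 58.4%) lay in a protein-coding gene away from any TSS, against 40.9% of all DOWN regions, and 18.8% were intergenic, against 26.1%. For UP partners, these shares were 36.0% and 21.2%, against 38.2% and 20.4% of all UP regions. No TSS lay in or within 1000 bp of 58.1% of UP and 67.0% of DOWN partners. By their midpoints, 120 UP and 123 DOWN partners were centred on an intron of a protein-coding gene.

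**Figure D3:**
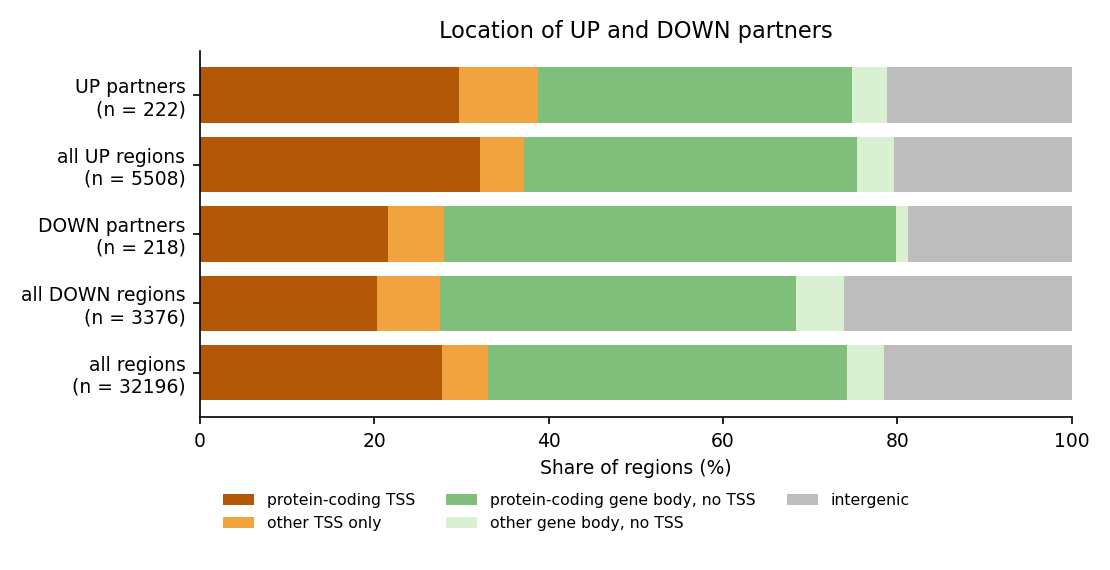
Share of regions (x axis, %) at a protein-coding TSS, at another TSS only, in a protein-coding gene body, in another gene body or between genes, for UP partners, DOWN partners, all UP, all DOWN and all regions. The protein-coding gene body segment is 51.8% for DOWN partners and 40.9% for all DOWN regions.

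Taken by pair, 26 of 227 had a TSS in both partners, 62 in the UP partner alone, 37 in the DOWN partner alone and 102 (44.9%) in neither. The most common kind of pair therefore held no promoter, and where exactly one partner did, it was more often the UP one. The full lists have the same order, with a TSS in 37.2% of all UP and 27.5% of all DOWN regions, so this is not particular to the pairs. Both partners had the same nearest protein-coding TSS in 195 pairs (85.9%, 80.8% to 89.8%), close to the 86.4% of UP-UP and 89.1% of DOWN-DOWN neighbours.

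The body of a single protein-coding gene held both directions in 135 pairs (59.5%, 53.0% to 65.6%), against 58.1% of UP-UP and 52% of DOWN-DOWN neighbours. These loci belong to 134 genes, or 126 by the RefSeq gene bodies, with 124 symbols in common. They were long genes, with a median body of 77991 bp (4137 bp for Tmem253 to 766722 bp for Zbtb20), against 26167 bp for the 11575 protein-coding genes with any region in their body. Greater length is partly set by the rule, since such a body must reach both partners across the gap. If adjacency is dropped, 506 genes, with a longer median body of 121267 bp, hold at least 1 UP and 1 DOWN region. They are 40.2% of the 1260 genes with 2 or more changed regions. Of those 1260 genes, 40.4% hold UP regions alone and 19.4% DOWN regions alone. Among 144 combinations of a gene and a pair, the UP partner lay nearer the 5′ end in 88 (61.1%). Among the 63 in which neither partner holds a TSS, it did so in 35 (55.6%).

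A promoter and the body of the same gene could be split between the partners in either order. In 41 genes, an UP region at a protein-coding TSS faced a DOWN region in the body of the same gene, and in 15 genes the TSS was DOWN and the body UP; some of these pairs hold the protein-coding TSS of another gene in the second partner. Set against the 2012 genes with a protein-coding TSS in an UP region and the 726 with one in a DOWN region, these are 2.04% (1.51% to 2.75%) and 2.07% (1.26% to 3.38%), with overlapping intervals.

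Among the 41 genes with an UP promoter and a DOWN body partner, the next 6 are examples, and all but Slc36a1, which the rule on runs names, were chosen after their values were seen. Derl2, which encodes a derlin of the pathway that removes misfolded proteins from the endoplasmic reticulum, had 3816 bp UP at the TSS and 3374 bp DOWN 1122 bp away. Cars, the cysteinyl-tRNA synthetase gene, had 1343 bp UP and 495 bp DOWN across 10765 bp, and Mthfd2, of mitochondrial one-carbon metabolism, 894 bp UP and 901 bp DOWN across 4075 bp. Slc36a1, a lysosomal amino acid transporter gene, had 336 bp UP at the TSS and 1040 bp DOWN 3309 bp on. The autophagy genes Atg13 and Epg5 showed the same order with gaps of 8973 and 2471 bp.

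An UP region at a TSS and a DOWN partner in the body were also found at Gsta3, Lipc, Cpn2, Per2 and, by its GENCODE body, Dusp1. Of these, Cpn2 and this Lipc pair were likewise picked after their values were seen. At Gsta3, the UP region (chr1:21239437-21249928, 10492 bp) covers the promoter printed above and is followed after 1001 bp by a DOWN region of 5998 bp (chr1:21250930-21256927). Lipc had a second pair at its start, with an UP region of 15850 bp at a TSS and a DOWN region of 5564 bp beyond a gap of 2330 bp. Cpn2, which encodes a subunit of the plasma carboxypeptidase N, had 4493 bp UP at the TSS and 9878 bp DOWN across 1228 bp. Per2, a repressor gene of the circadian clock, had an UP region at its TSS (chr1:91454596-91460264) with DOWN regions on either side, 14381 bp wide inside the gene and 2829 bp wide before it, at gaps of 4769 and 2883 bp. Dusp1, the gene of a phosphatase that shuts off MAP kinases, had 14108 bp UP over its TSS (chr17:26502047-26516154), then 2885 bp DOWN after 5850 bp and 1417 bp UP after another 4999 bp. Dusp1 lies on the minus strand, so this DOWN region is upstream of the nearest protein-coding TSS, by 13486 bp, and nearer the 5′ end of the GENCODE body. The Dusp1 body holds all 3 of these regions in GENCODE but not in RefSeq, where the gene is shorter.

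The reverse order, with a DOWN promoter and an UP region inside the gene, was found in 15 genes. Besides Egfr, Nfe2l2, the gene of the antioxidant regulator NRF2, had 10932 bp DOWN at the TSS (chr2:75695643-75706574) and 11498 bp UP in the body (chr2:75682810-75694307) across 1335 bp. Nr1i2, which encodes the xenobiotic receptor PXR, had 16806 bp DOWN at the TSS (chr16:38279424-38296229) and 3343 bp UP across 2890 bp. Nr5a2, the gene of LRH-1, a nuclear receptor of bile acid and cholesterol metabolism, had 4032 bp DOWN at a TSS and 323 bp UP across 7620 bp. Its body holds 5 DOWN and 8 unchanged regions, and this UP region is its only one. Lpin1, of the lipin phosphatases of triglyceride synthesis, had 8022 bp DOWN at the TSS and 1057 bp UP across 6186 bp. Acadm, the medium-chain acyl-CoA dehydrogenase gene of fatty acid oxidation, not among the genes the rule names, had 3522 bp DOWN and 6652 bp UP across 8334 bp.

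**Figure D4:**
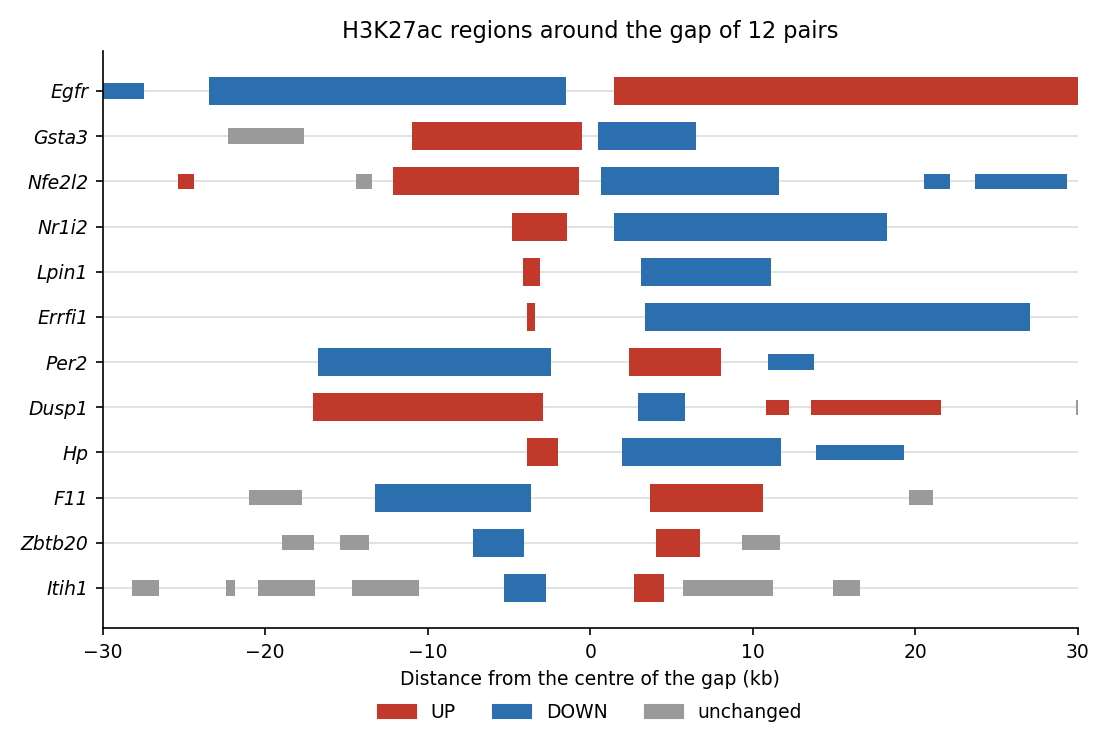
H3K27ac regions around the gap of 12 pairs, 1 row per locus, with distance from the centre of the gap in kb on the x axis; thick bars are the 2 partners, thin bars other regions, red is UP, blue DOWN and grey unchanged, and regions are clipped at 30 kb. The UP bar at Egfr, of 39094 bp, is the widest, and at Errfi1 a DOWN bar of 23661 bp faces an UP bar of 470 bp.

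Protein-coding TSSs of the same gene lay in both partners at 5 genes, so that alternative starts lay in regions of opposite direction. Zhx3, a transcriptional repressor gene, had 3953 bp UP and 5565 bp DOWN across 4808 bp. Tpd52 had 1475 bp UP and 1990 bp DOWN across 8957 bp, and Dhx40, an RNA helicase gene, 964 bp UP and 1873 bp DOWN across 4679 bp. Zfp219 had 2513 bp UP and 3649 bp DOWN across 1589 bp, with the start of Tmem253 in the DOWN partner as well. Osbpl1a, of the oxysterol-binding protein family, had 3796 bp UP and 8337 bp DOWN across 1140 bp. In these 5 genes the DOWN partner was the wider one.

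In all, 12 pairs had protein-coding TSSs in both partners. The other 7 joined promoters of different genes, 5 of which are named by the rule. Hp lies in a DOWN partner (chr8:109570651-109580407, 9757 bp) 3926 bp from an UP partner with the starts of Txnl4b and Dhx38, genes of the splicing machinery (chr8:109564805-109566724, 1920 bp). Serpinf2, the gene of the plasma protein alpha-2-antiplasmin, lies in 6874 bp of DOWN region across 9051 bp from 1607 bp UP at Wdr81. Polr2a, which encodes the large subunit of RNA polymerase II, had 2726 bp UP, facing 967 bp DOWN at Zbtb4 across 5537 bp. Ell had 9589 bp UP, facing 5551 bp DOWN at Fkbp8 and Kxd1 across 5002 bp, and Cog8, with Nip7, had 1754 bp UP, facing 1781 bp DOWN at Pdf across 6424 bp.

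In 61 pairs both partners lay in the same gene with no TSS in either. Ern1, the gene of the ERS sensor IRE1, was the single gene of the unfolded protein response list here, with 4518 bp UP (chr11:106427465-106431982) and 2551 bp DOWN (chr11:106415806-106418356) across 9108 bp; its body holds 4 UP, 2 DOWN and 3 unchanged regions. Zbtb20, which encodes a repressor of liver development and metabolism, had 2665 bp UP and 3135 bp DOWN across 8152 bp, among 7 UP, 3 DOWN and 30 unchanged regions. Itih1, of the inter-alpha-trypsin inhibitor heavy chains, had 1840 bp UP and 2638 bp DOWN across 5396 bp. Of genes outside the rule, Lrp1, an endocytic receptor gene, held 3 UP and 3 DOWN regions with 1 adjacent pair at 1311 bp, though a noncoding start lies in the UP partner, and Aqp9, the glycerol channel of hepatocytes, had 1601 bp UP and 9932 bp DOWN across 2752 bp. Rxra, the gene of the shared partner of many nuclear receptors, had a noncoding start in its UP partner of 6016 bp, and its DOWN partner of 2063 bp lay 2407 bp on, with 15 unchanged regions in the same body.

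In 92 pairs no protein-coding body held both partners. The Errfi1 pair is one, its UP partner lying 10661 bp from the TSS in another gene. At Gpam, an UP region of 759 bp that overlaps the gene was 3454 bp from a DOWN region of 519 bp, each about 30 kb from the start (28631 and 32844 bp). The plasma kallikrein and factor XI genes gave a mixed case that is not one of the 92. There, 9571 bp DOWN at the F11 start and 6970 bp UP, across 7332 bp, both overlap the body of Klkb1. A pair near Atp2a2, which encodes SERCA2, a target of thapsigargin, was also seen outside the named set. Its DOWN partner of 5264 bp lay 22557 bp and its UP partner of 949 bp 39487 bp from the TSS. Pairs with Egfr as the nearest gene numbered 2, since 2043 bp UP and 4090 bp DOWN also lay 54862 and 47283 bp before the start, 3489 bp apart.

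Beyond pairs, UP and DOWN alternated over 3 regions in 14 places and never over 4, leaving 199 isolated pairs. Since each holds 3 regions, none is the longest by number. Those at Ehd1, Dusp1 and Slc36a1 ran UP, DOWN, UP, and those in Mreg and at Per2 ran DOWN, UP, DOWN. In Ehd1, an endocytic recycling gene, regions of 3939 bp UP, 2523 bp DOWN and 3124 bp UP followed each other at gaps of 10677 and 3432 bp. In Mreg, a DOWN region of 5952 bp, an UP region of 1974 bp and a DOWN region of 3331 bp did so at gaps of 4272 and 12064 bp. Most pairs were not at the edge of longer blocks of the same direction. The region beyond the UP partner was UP in 28 of 227 pairs, DOWN in 10, unchanged in 102, and in 87 no region lay within the limit. Beyond the DOWN partner it was DOWN in 25, UP in 18, unchanged in 88 and absent in 96. A block of UP regions meeting a block of DOWN regions, with the like class on both outer sides, was seen in 5 pairs.

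LIVER-ID genes, which the study defined from broad H3K4me3 domains in liver and not from these libraries, were present in the pairs, as were UBQ genes, whose broad domains are shared between tissues. Of 556 LIVER-ID genes with a TSS in any region, 10 (1.80%) had one in an UP partner and 13 (2.34%) in a DOWN partner, with 3 genes (Gsta3, Osbpl1a and Rnf169) in both. For 517 UBQ genes these were 6 (1.16%) and 4 (0.774%), and for all 12261 genes 112 (0.913%) and 76 (0.620%). A body that holds both partners was found for 18 of 490 LIVER-ID genes (3.67%), beside 11 of 447 in the UBQ list (2.46%) and 134 of all 11554 genes (1.16%). Among 41 LIVER-ID TFs with a region in their body the count was 4 (9.76%), namely Nfe2l2, Nr1i2, Nr5a2 and Zbtb20, and no LIVER-ID TF had its start in an UP partner. Their bodies are longer, with a median of 44328 bp against 27675 bp in the LIVER-ID list, 25299 bp in the UBQ list and 26167 bp over all genes. Starts in any DOWN region were found for 22.3% of LIVER-ID and 19.1% of UBQ genes, against 8.91% of all genes. For any UP region these shares were 22.8%, 21.7% and 21.4%. Of genes with 2 or more changed regions in the body, 45 of 96 in the LIVER-ID list held both directions. The counts were 43 of 90 for UBQ genes and 506 of 1259 for all genes, taken by symbol. What length and the number of changed regions contribute to the shares above was not tested.

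The other lists were of pathways chosen for MPH and ERS. Of 37 unfolded protein response genes with a start in a region, 33 were in UP regions and none in DOWN regions, against 21.4% and 8.91% of all genes with such a start, and none in a partner. Over all genes with such a start, 0.913% had one in an UP partner and 0.620% in a DOWN partner, so few are expected in lists of this size. Hepatocyte transcription factors had 1 start in an UP partner (Rxra, 3.57%) and 2 in DOWN partners (Nr1i2 and Nr5a2, 7.14%) of 28. Of the same 28, 5 lay in any UP and 10 in any DOWN region. In this list 4 of 29 bodies (13.8%) held both partners, against 1.16% over all genes. Among them, Nr1i2, Nr5a2 and Zbtb20 are also LIVER-ID TFs, counted above. Bodies in this list were longer, with a median of 46502 bp against 26167 bp over all genes. Of its 10 genes with 2 or more changed regions in the body, 6 held both directions, beside 506 of 1259 over all genes. What length and the number of changed regions contribute was not tested here either. As bodies with both partners, the clock and PAR-bZIP list gave Per2 alone of 18 (5.56%) and xenobiotic metabolism Gsta3 alone of 21 (4.76%). Lipid, bile acid and glucose metabolism gave Lpin1 alone of 36 (2.78%). Each of these shares rests on 1 gene, beside 1.16% over all genes. The AP-1 and growth factor list gave Dusp1 and Egfr of 31 bodies (6.45%), against the same 1.16% over all genes. Of these, Dusp1 counts by its GENCODE body only and not by its RefSeq body. Plasma proteins had 2 starts in DOWN partners (F11 and Hp, 5.56%) and none in UP partners of 36, against the 0.620% and 0.913% of all genes. Of these 36, 13 (36.1%) lay in any DOWN region and 2 (5.56%) in any UP region.

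The DNA at the centres of the partners showed the same order of UP and DOWN shares as the full lists for the motifs with the widest contrast. Motifs were searched as short consensus letters on both strands of the central 300 bp, in 218 UP and 215 DOWN partners of at least that width. AP-1 (TGANTCA) was found in 21.1% of UP partners (16.2% to 26.99%) and 9.30% of DOWN partners (6.10% to 13.9%), against 25.4% of all UP, 13.0% of all DOWN and 18.4% of all regions. ATF4/CHOP (TGATGNAA) was found in 9.17% and 2.79%, against 9.84%, 4.48% and 5.54%. HNF4 (CAAAGTCCA or CAAAGTTCA) went the other way, with overlapping intervals. It was found in 3 UP partners (1.38%, 0.469% to 3.97%) and 12 DOWN partners (5.58%, 3.22% to 9.50%), against 1.31%, 3.37% and 2.05%. So did FOXA (TGTTTAC or TGTTTGC), with 7.34% (4.57% to 11.6%) and 14.0% (9.95% to 19.2%), against 11.7%, 15.4% and 12.6%. Its intervals overlap as well. For CEBP (TTGCNNAA) the shares were 11.5% and 10.7%, for the D-box (TTANNTAA) 5.05% and 6.51%, and for NRF2/MAF (TGACTCAGC or TGACNNNGC, the first of which contains an AP-1 match) 12.4% and 12.6%, with overlapping intervals between the partners. How the partners stood to their own class changed with the window, since ATF4/CHOP in UP partners was 9.17% against 9.84% here but 15.9% against 14.8% of all UP regions in 500 bp and 44.6% against 35.6% in whole regions, where the partners are also wider. CRE (TGACGTCA), UPRE (TGACGTGG), HNF1 and ERSE were each found in at most 3 partners of either class. A few bases decide such a match, so these shares describe the letters and not the binding of a factor.

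**Figure D5:**
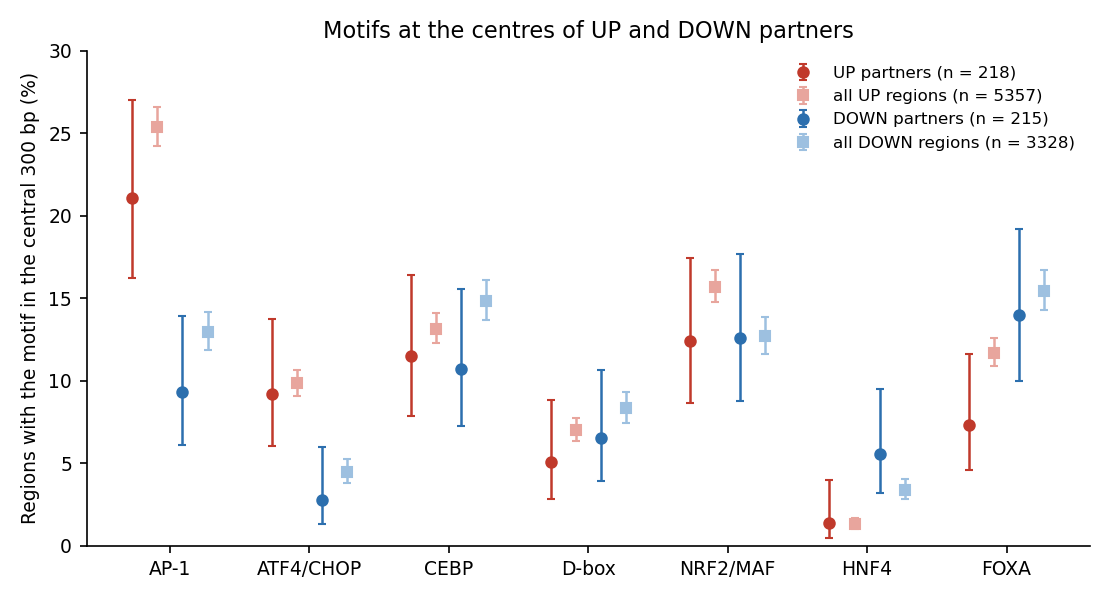
Share of regions with a motif in their central 300 bp (y axis, %) for UP partners, all UP regions, DOWN partners and all DOWN regions, with 95% Wilson intervals as bars. AP-1 and ATF4/CHOP are higher in UP than in DOWN partners (21.1% against 9.30%, 9.17% against 2.79%), HNF4 and FOXA lower (1.38% against 5.58%, 7.34% against 14.0%), as in the lists as a whole. For HNF4 and FOXA, the intervals of UP and DOWN partners overlap. CEBP and NRF2/MAF have the reverse order in the lists as a whole.

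The pairs were spread over 19 of the 21 chromosomes with a region. Chromosome 11 held the most, 23 pairs or 3.81 for every 100 of its changed regions, against 2.56 over the genome, and chromosome 12 the fewest per changed region of those with a pair, 4 pairs or 1.12 for every 100. The X and Y chromosomes held 150 and 2 changed regions and no pair.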

How the data were processed

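Chromatin of MPH given thapsigargin or DMSO was profiled by H3K27ac ChIP-seq. The authors aligned reads to mm10 with Bowtie, removed duplicates and blacklisted regions, called broad peaks on pooled libraries with MACS2 and compared treatments with csaw in 150 bp bins, in a model paired by preparation. Bins were combined for each peak. At an FDR up to 0.05, a region was UP when its UP bins were at least 2 times its DOWN bins and DOWN when they were 0.5 times or fewer; unchanged regions had a higher FDR. The deposited lists used here hold positions only, without a value per library, so the depth is unknown and the authors' steps could not be repeated.

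Neighbours, gaps (bases between regions), widths and overlaps were computed in Python 3.11.15 with numpy 2.4.6, scipy 1.17.1 and pandas 2.3.3, and drawn with matplotlib 3.10.9. TSSs and gene bodies came from GENCODE release M21. A TSS counted where the first base of a transcript lay in the region, and a body where at least 1 base overlapped. Sequence and promoters came from RefSeq (GRCm38.p6). No test was run, since the class chose the members and the lists hold no replicates. The members and gene lists were chosen with earlier results of these data known. Pairs were named for the smallest gap or largest summed width (5 each), a place next to the limit, protein-coding TSSs in both partners (10 at most, by gap), a gene of the lists or a LIVER-ID TF (all 18), and runs of 3 (5 at most, by start position, as all tie in length). Some loci that meet this rule are not reported here. Other names are said to lie outside this rule or were chosen after their values were seen. LIVER-ID, LIVER-ID TF and UBQ lists are those of the study (613 of 621 and 645 of 657 symbols of LIVER-ID and UBQ matched). The counting functions were tested on simulated regions with planted pairs, starts and motifs.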

Additional observations from a re-analysis of the deposited data

How the results depend on the processing

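The 227 pairs became 101 with a gap of at most 5000 bp and 416 with at most 50000 bp, and the 134 genes with both partners became 67 and 204. The median gap became 6548 bp when unchanged regions were ignored, which by construction admits 324 pairs. With TSSs of protein-coding transcripts alone, the share of partners with a TSS was 29.7% for UP and 21.6% for DOWN. With a TSS within 10000 bp in place of inside the region, LIVER-ID genes at DOWN partners numbered 23, and UBQ genes 17 at UP and 11 at DOWN partners. Leaving out regions under 1000 bp, limiting the distance of midpoints, widening genes by 5000 bp and requiring an overlap of 50% of each partner moved these counts by less than 1.5 times; RefSeq gene bodies, an alternative added after seeing the data, did so too. DOWN partners stayed wider in 55.9% to 62.5% of pairs under the gap limits, the width minimum, midpoints and ignoring unchanged regions. Motif shares rose with the window, as longer windows hold more letters: AP-1 reached 30.8% of UP and 14.8% of DOWN partners in 500 bp, and 64.0% and 58.7% in whole regions. No paired analysis was possible because the lists hold no value per library, and for the same reason no preparation could be left out. Depth, and so the regions that could be called at all, is unknown.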
